A study of Mus musculus with 8 samples.

Results

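The genes described here are the machinery that licenses origins and copies DNA, in mouse liver: 43 genes, chosen by name from the 37583 genes of the deposited count table, and all 43 were among the 17362 genes with enough reads to test. They cover 9 functional groups: the origin recognition complex (6 genes), the licensing factors Cdc6, Cdt1 and Gmnn, the MCM2-7 helicase (6), helicase activation (6), DNA polymerases and primase (8), the PCNA clamp and its RFC loader (6), the single-strand binding protein RPA (3), nucleotide supply (3) and Okazaki fragment maturation (2). Poly(A) RNA of whole liver was sequenced from 8-month-old mice of a mixed C57BL6/CBA strain in 3 groups. The WT group (2 libraries) was wild type, with no agent in its labels. The PR-SET7_LOBE group (4 libraries) carried the genotype PR-SET7_LX_ALB_CRE, that is, a floxed PR-SET7 allele with a Cre recombinase driven by the albumin promoter, which acts in hepatocytes. PR-SET7 stays intact in cells where that promoter was never active, in the cell or its precursors. The labels do not say which cells these are. The DEN_WT group (2 libraries) was wild type and had been injected intraperitoneally on postnatal day 15 with the liver carcinogen diethylnitrosamine (DEN), at a labelled dose of 25 ml per kg with no concentration given. LOBE is kept as the submitters' word, since the labels do not define it. The labels do not say that the libraries of a group came from separate animals, so the p-values below measure the spread between these libraries, which may be in part technical. Both comparisons with WT use the same 2 WT libraries and are not independent of each other.

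A cell licenses its origins late in mitosis and in G1: the origin recognition complex (ORC) binds DNA, Cdc6 and Cdt1 then load the ring-shaped MCM2-7 helicase, and geminin (Gmnn) blocks further loading after S phase has begun. In S phase Mcm10, Cdc45 and the GINS complex turn the loaded ring into an active helicase, and polymerases alpha, delta and epsilon copy the unwound strands with the help of PCNA, RFC and RPA. PR-SET7, listed in the table as Setd8, is the histone methyltransferase that adds the first methyl group to lysine 20 of histone H4, a mark tied to origin licensing, and the enzyme itself is destroyed in S phase through PCNA-bound ubiquitin ligase. Most hepatocytes of an adult liver are quiescent, and many of the genes above are known targets of the E2F factors, which are active as cells enter S phase.

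Sequences upstream of the start sites show what part of the members share. Of the 43 members, 35 had a promoter window in RefSeq (GRCm38.p6), running from 250 bases before to 50 bases after the annotated start. The 8-base E2F letters TTTCCCGC, TTTCGCGC, TTTGCCGC or TTTGGCGC, read on both strands, occurred in the windows of 14 of these 35 genes, or 40%, against 2.60% of the 27025 genes in the same table. Counting only the 250 bases before the start, 9 members held them (25.7%, against 2.16% of all genes). These are the 9 upstream stretches, shown because E2F letters had the highest ratio of frequency in members to frequency in all genes among the 3 elements searched, with the E2F letters in capitals and 20 bases on each side unless the window of upstream bases ended sooner. They are written 5′ to 3′ on the strand of the gene, with GRCm38.p6 positions.
Cdc6 (chr11:98907993-98908040, plus strand): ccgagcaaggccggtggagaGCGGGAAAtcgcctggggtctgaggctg
Gins3 (chr8:95633498-95633545, plus strand): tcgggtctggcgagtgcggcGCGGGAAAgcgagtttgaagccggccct
Mcm5 (chr8:75109336-75109387, plus strand): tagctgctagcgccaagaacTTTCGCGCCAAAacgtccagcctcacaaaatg
Mcm6 (chr1:128359725-128359835, minus strand): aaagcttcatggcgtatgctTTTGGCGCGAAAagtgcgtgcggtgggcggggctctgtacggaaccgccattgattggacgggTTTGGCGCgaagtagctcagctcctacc
Mcm7 (chr5:138172021-138172068, minus strand): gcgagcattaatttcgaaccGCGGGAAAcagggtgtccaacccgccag
Orc1 (chr4:108579407-108579453, plus strand): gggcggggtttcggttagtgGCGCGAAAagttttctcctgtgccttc
Orc3 (chr4:34614956-34615003, minus strand): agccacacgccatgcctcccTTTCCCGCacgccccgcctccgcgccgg
Pola1 (chrX:93632266-93632313, minus strand): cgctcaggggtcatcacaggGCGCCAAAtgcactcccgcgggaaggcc
Rfc3 (chr5:151651209-151651238, minus strand): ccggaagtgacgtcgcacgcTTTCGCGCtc

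The 12-base runs of Mcm5 and Mcm6 hold 2 overlapping matches, 1 on each strand, and Mcm6 has a further match downstream, 3 in all. The other 5 members with the letters (Cdt1, Lig1, Mcm3, Pold1 and Pole2) had them only after the start. The NF-Y letters CCAAT, on either strand, were in a window of 65.7% of the 35 members and of 41.1% of all genes. The CHR letters TTTGAA or TTCGAA, an element of genes that peak late in the cell cycle, were in a window of 20% of the members and of 21.7% of all genes. A match is a description of the window and was not linked to binding of any factor.

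**Figure D1:**
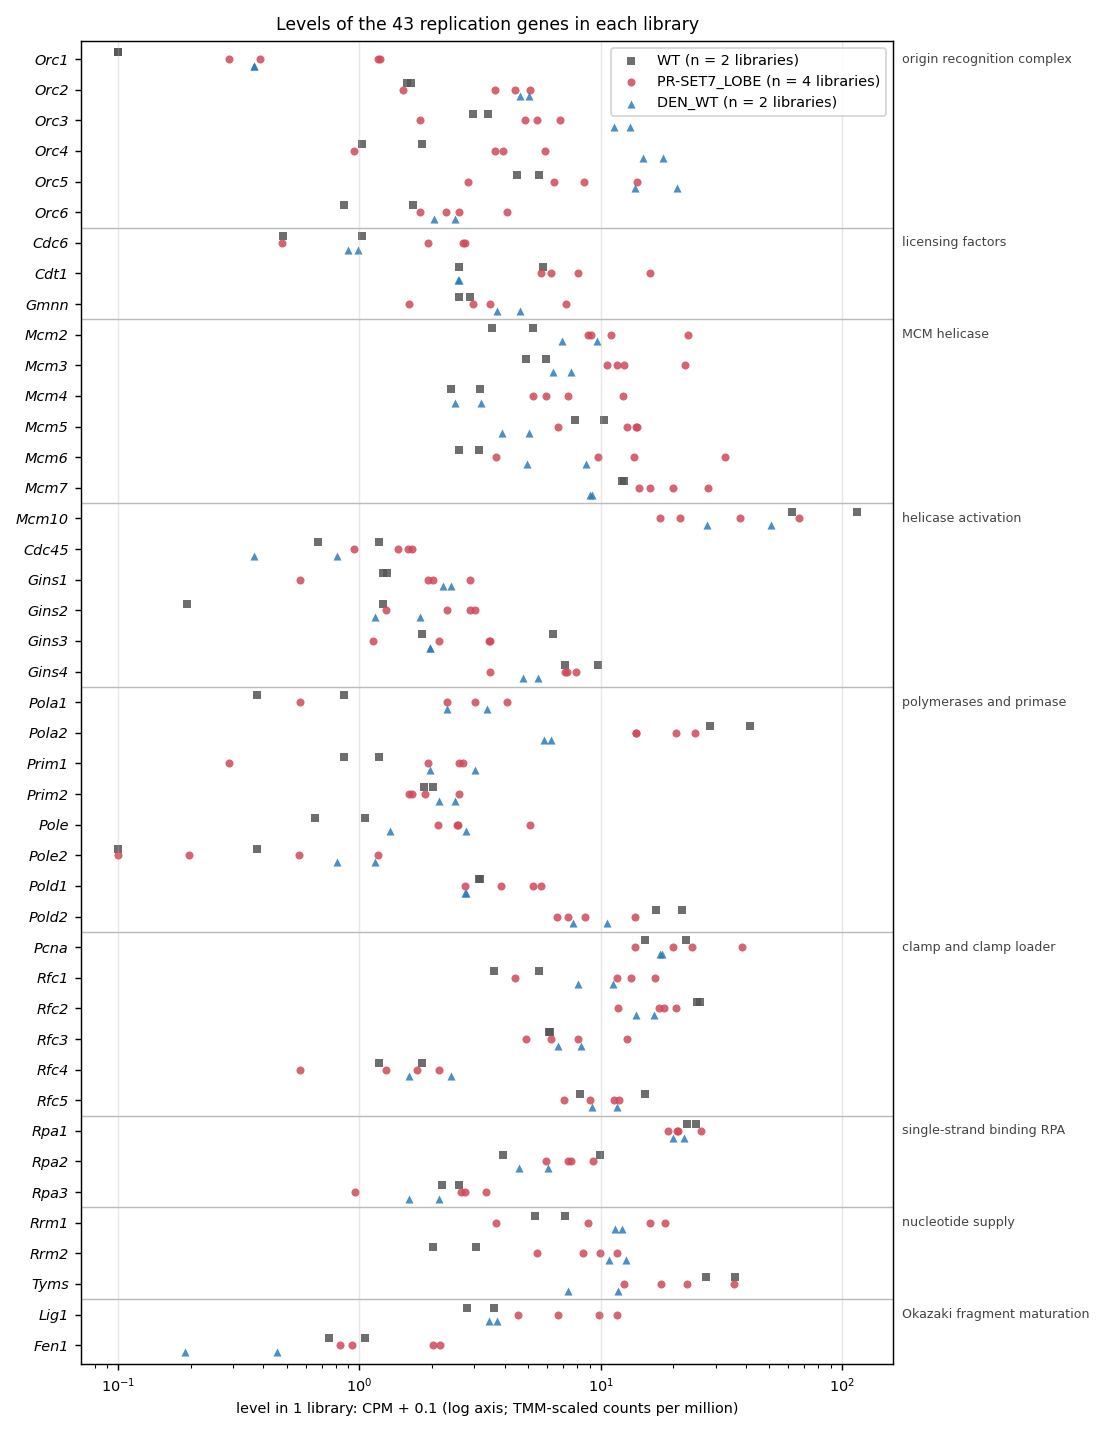
Level of each of the 43 replication genes in each library (x axis: TMM-scaled CPM plus 0.1, log axis; 1 point per library; genes grouped by role). The MCM2-7 points of PR-SET7_LOBE lie mostly to the right of both other groups, while Orc3 and Orc4 are highest in DEN_WT and Pola2 is highest in WT.

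The 8 libraries held 7305595 to 16108081 counts on genes, and 3 counts corresponded to 0.265 to 0.287 CPM (counts scaled to the library total times its TMM factor). Most members were scarce transcripts: their counts summed to 3239 to 4980 per library over all 43 genes. PR-SET7_LOBE replicate 1 stood apart from the other libraries: its deviations from the mean of all libraries rose with the GC content of the gene (r = 0.62 across genes). This r also differed by group: 0.31 and 0.20 in WT, -0.04, -0.30 and -0.25 in PR-SET7_LOBE replicates 2 to 4, and -0.29 and -0.25 in DEN_WT. The comparisons with WT thus carry a GC trend, whose part was not tested beyond a GC correction. Replicate 1 was also the lowest of the 4 PR-SET7_LOBE libraries for 23 of the 43 members. Replicate 3 of the same group, the library with the fewest counts and the most genes detected (26437), was the highest for 26 of 43. Neither count was made over all tested genes, so neither shows a trait of the members. The counts of members that passed, and the main values on PR-SET7_LOBE, are therefore given with and without replicate 1. Setd8 was at 51.9 and 56.0 CPM in WT, 62.6, 57.4, 47.9 and 46.5 CPM in PR-SET7_LOBE and 40.02 and 42.8 CPM in DEN_WT. These overlapping levels over the whole gene do not check the genotype. In bulk tissue, fewer cells of a type and less RNA per cell cannot be told apart.

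In PR-SET7_LOBE against WT, no member passed the edgeR quasi-likelihood test at an adjusted p under 0.05, in a comparison in which few genes of any kind did: 0.15% of all tested genes were called higher and 0.0979% lower. The values leaned upward. The fitted log2 fold change was above 0 for 32 of the 43 members, with a median of 0.67 against 0.11 over all genes tested (log2 scale). The median was the same 0.67 with Orc1, absent from WT, set at its ratio to a floor of 3 WT counts. Without PR-SET7_LOBE replicate 3 it was 0.46, against 0.08 over all genes. At an unadjusted p under 0.05, 10 members were higher (Orc1, Mcm2, Mcm3, Mcm4, Mcm6, Pola1, Pole, Rfc1, Rrm2 and Lig1) and 3 lower (Mcm10, Pola2 and Pold2), where 11.1% and 6.08% of all genes met that rule. All 4 PR-SET7_LOBE libraries lay above both WT libraries for 11 members, or 25.6%, against 11.6% of all genes, and below them for 3, or 6.98%, against 10.5%. DESeq2 called 3 members higher (Mcm3, Mcm6 and Rrm2; 3.98% of its tested genes were higher) and limma voom 1 (Rrm2; 0.766%).

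Without PR-SET7_LOBE replicate 1, 9 of the 43 members passed the same test. Orc2, Orc4, Mcm3, Mcm6, Pola1, Rfc1 and Rrm2 were higher and Pola2 and Pold2 lower, where 7.41% of all genes were called higher and 6.54% lower. The median log2 fold change of the members was then 0.79, against 0.12 over all genes. The count for the comparison with WT thus depended on this 1 library. Its GC trend moved with the result. Without it, the r with GC content was -0.04, -0.30 and -0.25 in the remaining PR-SET7_LOBE libraries, against 0.31 and 0.20 in WT. No member passed under the GC correction, but that fit kept replicate 1, and none passed there without the correction either. No fit both left out replicate 1 and corrected for GC, so the part of GC in the 9 calls was not tested.

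**Figure D2:**
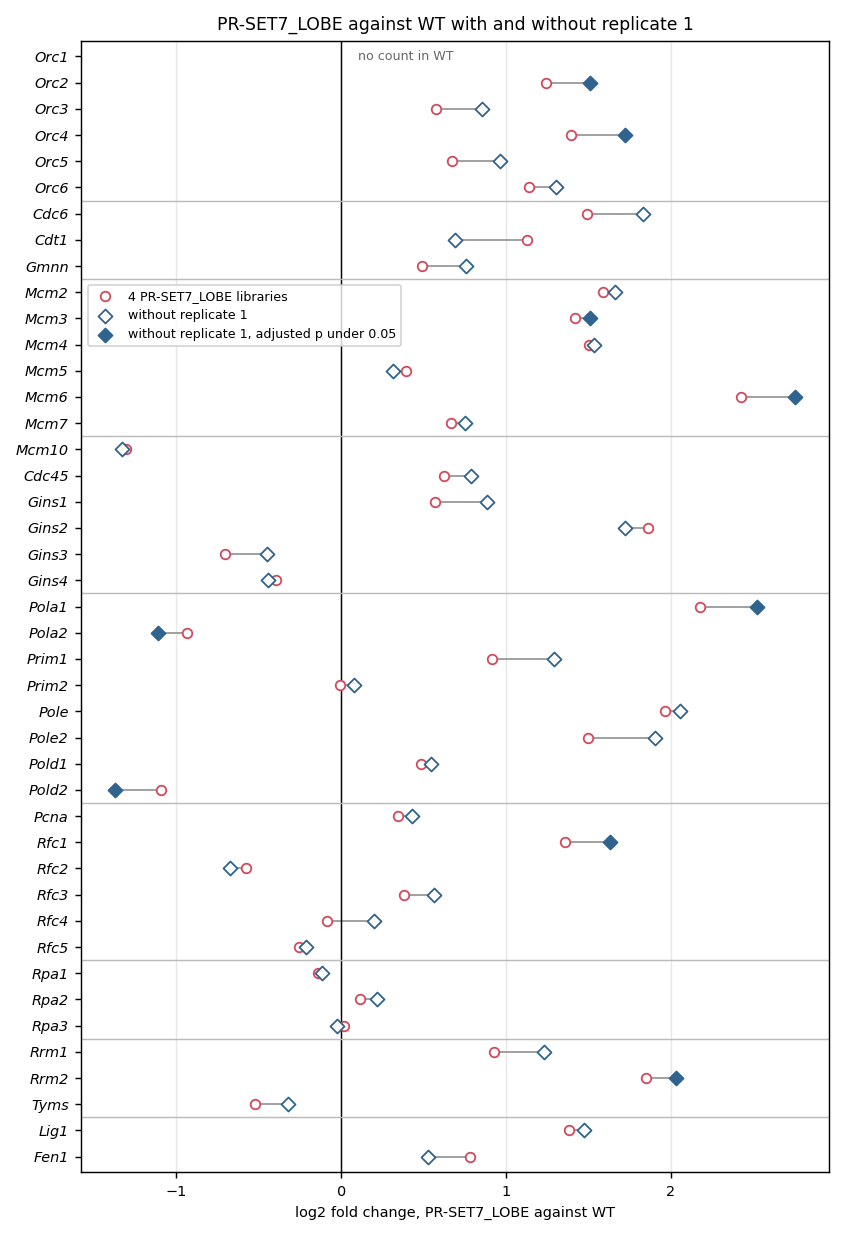
Log2 fold change of each member in PR-SET7_LOBE against WT with all 4 PR-SET7_LOBE libraries (circles) and without replicate 1 (diamonds, filled where the edgeR adjusted p was under 0.05). Orc1, with no count in WT, has no fold drawn. Most values lie further from 0 without replicate 1, and 9 diamonds are filled.

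In DEN_WT against WT, Orc4 and Rrm2 rose and Pola2 fell among the 43 members, where 5.18% of all tested genes rose and 4.54% fell. The median log2 fold change of the members was 0.29 against 0.06 over all genes, with 25 of 43 above 0, and 0.43 against 0.18 in the fit without PR-SET7_LOBE replicate 3. Both DEN_WT libraries lay above both WT libraries for 20 members and below for 13, or 46.5% and 30.2%, where 37.8% and 33.3% of all genes did so. Leaving out PR-SET7_LOBE replicate 1, which is in neither group but enters the shared fit and filter, 6 members rose (Orc2, Orc3, Orc4, Orc5, Pola1 and Rrm2) and 3 fell (Pola2, Pold2 and Tyms), against 14.6% and 11.9% of all genes. None passed without WT replicate 2, DEN_WT replicate 1 or DEN_WT replicate 2, fits that leave 1 library in an arm and assume that it varies like the others, and Pola2 alone passed without WT replicate 1.

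In PR-SET7_LOBE against DEN_WT, the direct comparison of the group with the PR-SET7 genotype and the carcinogen-treated group, Pola2 was higher and Orc4 lower, where 4.82% of all genes were higher and 6.26% lower. The members' median log2 fold change was 0.33 against 0.18 over all genes. Without PR-SET7_LOBE replicate 3 it was 0.03, with 22 of 42 members above 0, against -0.01 over all genes, and without replicate 1 it was 0.42 against 0.09. The 4 PR-SET7_LOBE libraries lay above both DEN_WT libraries for 10 members and below for 2, or 23.3% and 4.65%, where 19.3% and 21.2% of all genes did so. Without PR-SET7_LOBE replicate 1, Pola2, Tyms and Mcm7 were higher and Orc4 lower, against 6.93% and 8.60% of all genes. No member passed without PR-SET7_LOBE replicate 2, DEN_WT replicate 1 or DEN_WT replicate 2.

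**Figure D3:**
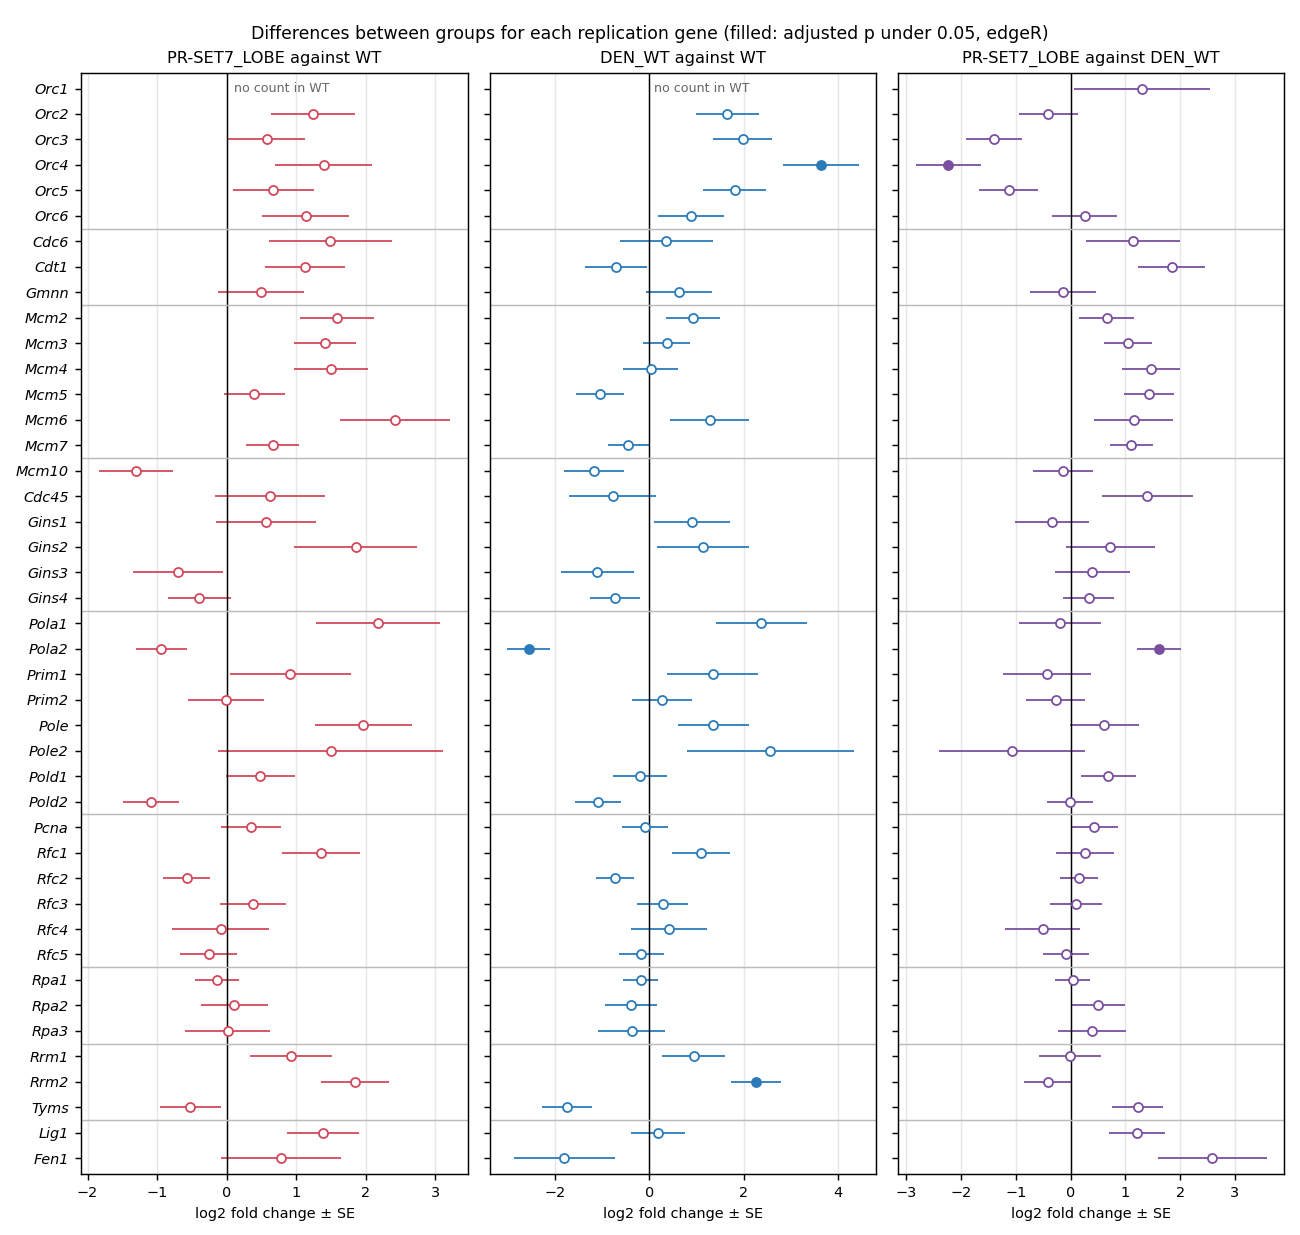
Log2 fold change with its standard error for each member in the 3 comparisons (filled points: edgeR adjusted p under 0.05; groups of members separated by lines). The MCM2-7 points sit above 0 in both comparisons of PR-SET7_LOBE, the 5 ORC points drawn in DEN_WT against WT all lie above 0, and Pola2 and Orc4 are the only filled points in the third panel.

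The origin recognition complex marks the sites where helicases are loaded, and the sum of its 6 genes was highest in the DEN-treated livers. For all 6 both DEN_WT libraries exceeded both WT libraries, as they did for 37.8% of all genes. Mean levels of Orc1 and Orc6 were higher in PR-SET7_LOBE than in DEN_WT, and those of the other 4 lower. The summed level of the 6 genes was 11.3 and 12.7 CPM in WT, 8.55, 24.4, 36.6 and 21.7 CPM in PR-SET7_LOBE and 49.1 and 57.1 CPM in DEN_WT. For the group, the median log2 fold change was 1.89 in DEN_WT against WT (1.73 with Orc1 at its ratio to the floor in WT) and 1.19 in PR-SET7_LOBE against WT. In both comparisons 6 of 6 genes were above 0 under each of 7 settings (TMM, size factors of DESeq2, upper-quartile scaling, DESeq2, limma voom, TMM without the 20 most abundant genes, and a GC correction). The GC correction lowered these medians to 1.02 and 0.59, and without PR-SET7_LOBE replicate 1 they were 1.89 and 1.41. One of the 6 passed in DEN_WT against WT, and none in PR-SET7_LOBE against WT.

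Orc4 (mm9 chromosome 2, 48758344 to 48805797, minus strand), an ATPase-fold subunit of the ring, had the largest log2 change among the members that passed. It was at 1.72 and 0.922 CPM in WT, at 0.845, 3.54, 5.76 and 3.83 CPM in PR-SET7_LOBE replicates 1 to 4, and at 14.9 and 18.1 CPM in DEN_WT. The DEN_WT libraries were far above all 6 others, and the PR-SET7_LOBE libraries overlapped WT through replicate 1 alone. Orc4 rose by 3.63 ± 0.80 (log2, SE) in DEN_WT against WT (edgeR adjusted p = 0.0191) and was lower by -2.24 ± 0.59 in PR-SET7_LOBE against DEN_WT (adjusted p = 0.034). Without WT replicate 1, WT replicate 2, DEN_WT replicate 1 or DEN_WT replicate 2, the first call was lost, with edgeR adjusted p of 0.0828, 0.126, 0.0618 and 0.101. The second was lost under upper-quartile scaling (0.0558) and without PR-SET7_LOBE replicate 2 (0.0744), PR-SET7_LOBE replicate 4 (0.0643), DEN_WT replicate 1 (0.131) or DEN_WT replicate 2 (0.252). The difference of Orc4 in PR-SET7_LOBE against WT was 1.40 ± 0.69 (adjusted p = 0.322), and 1.72 ± 0.45 (adjusted p = 0.0402) without replicate 1. Its locus overlaps Mbd5 and Acvr2a on the opposite strand, and since the strand setting of the counting is not given, reads of these genes cannot be told apart from its own.

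Orc3, another subunit of the ring, was at 2.87 and 3.32 CPM in WT, 1.69, 5.36, 6.68 and 4.74 CPM in PR-SET7_LOBE and 13.2 and 11.2 CPM in DEN_WT. Orc5, also a subunit of the ring, was at 4.40 and 5.44 CPM in WT, 2.72, 8.42, 14.0 and 6.29 CPM in PR-SET7_LOBE and 13.8 and 20.7 CPM in DEN_WT. For Orc3 both DEN_WT libraries exceeded all others, while for Orc5 replicate 3 of PR-SET7_LOBE reached into the DEN_WT range. The log2 difference between DEN_WT and WT was 1.98 ± 0.63 for Orc3 (edgeR adjusted p = 0.0713) and 1.81 ± 0.67 for Orc5 (adjusted p = 0.107). Both passed without PR-SET7_LOBE replicate 1, at 0.00837 and 0.0209.

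Orc1, the subunit whose protein is renewed each cell cycle, had no read in either WT library, 2, 3, 12 and 12 counts in PR-SET7_LOBE and 3 and 3 counts in DEN_WT. Set against a floor of 3 counts over the 2 WT libraries, its level was 4.80-fold higher in PR-SET7_LOBE and 1.88-fold higher in DEN_WT. These ratios allow for counting error in WT only. They take the few counts of the other group as exact, so they are not lower limits of the fold. Orc2 and Orc6 were the remaining subunits. Orc2 ranged from 1.48 to 1.53 CPM in WT, 1.41 to 5.01 CPM in PR-SET7_LOBE and 4.52 to 4.95 CPM in DEN_WT, and Orc6 from 0.766 to 1.57, 1.69 to 3.99 and 1.94 to 2.39 CPM. Per kb of transcript, where genes can be compared with each other, Orc5 was the most abundant subunit in all 3 groups (2.34, 3.74 and 8.20 CPM per kb) and Orc1 the least (0, 0.222 and 0.088), and Orc4 moved from the fifth place in WT to the third in DEN_WT.

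The sum of the licensing factors followed another order, with PR-SET7_LOBE highest, and Cdt1 made up much of it. The level of Cdc6, Cdt1 and Gmnn together was 8.52 and 6.18 CPM in WT, 17.8, 10.8, 17.6 and 11.6 CPM in PR-SET7_LOBE, and 7.88 and 6.89 CPM in DEN_WT, so that the sums of the 4 PR-SET7_LOBE libraries lay above the 4 others. None of the 3 genes passed in any comparison. Cdt1, which brings the MCM ring to ORC and is degraded by the same PCNA-bound ligase as PR-SET7, was at 5.65 and 2.49 CPM in WT, 15.97, 6.12, 7.98 and 5.56 CPM in PR-SET7_LOBE and 2.48 and 2.47 CPM in DEN_WT. All 4 PR-SET7_LOBE libraries were above both DEN_WT libraries, by 1.84 ± 0.61 on the log2 scale (edgeR adjusted p = 0.0789), or 1.41 ± 0.47 (0.0767) without replicate 1, the highest library, and replicate 4 lay just within the WT range. Cdc6, the ATPase that joins ORC before loading, was at 0.383 and 0.922 CPM in WT, 0.376, 1.82, 2.60 and 2.64 CPM in PR-SET7_LOBE and 0.886 and 0.795 CPM in DEN_WT, with replicate 1 alone at the WT level. Gmnn, the inhibitor of loading, was at 2.49 and 2.77 CPM in WT, 1.503, 2.87, 7.06 and 3.37 CPM in PR-SET7_LOBE and 4.52 and 3.62 CPM in DEN_WT, with the PR-SET7_LOBE libraries on both sides of the WT pair and their mean below that of DEN_WT (above it without replicate 1).

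The MCM2-7 genes encode the 6 subunits of the replicative helicase, and were highest in PR-SET7_LOBE. Their summed level was 37.2 and 35.4 CPM in WT, 63.2, 68.5, 130.8 and 61.4 CPM in PR-SET7_LOBE and 39.9 and 36.0 CPM in DEN_WT, so that the 4 PR-SET7_LOBE sums were above all others and WT and DEN_WT overlapped. None of the 6 genes passed in either comparison with all libraries. Their median log2 difference was 1.46 in PR-SET7_LOBE against WT and 1.13 in PR-SET7_LOBE against DEN_WT, with 6 of 6 above 0 in each, under each of the same 7 settings, and 0.20 in DEN_WT against WT, with 4 of 6 above 0 (3 of 6 under at least 1 of them). Without PR-SET7_LOBE replicate 1 the first of these medians was 1.52 and the next 1.27. Without replicate 3 they were 1.20 and 0.73. Of the 6, 4 had an unadjusted p under 0.05 in PR-SET7_LOBE against WT, where 11.1% of all genes were higher by that rule.

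Mcm3 was at 5.84 and 4.79 CPM in WT, 11.6, 12.4, 22.3 and 10.6 CPM in PR-SET7_LOBE and 7.44 and 6.27 CPM in DEN_WT. Mcm2, which also holds parental histones at the fork, was at 3.45 and 5.16 CPM in WT, 10.99, 8.80, 23.0 and 9.02 CPM in PR-SET7_LOBE and 6.82 and 9.54 CPM in DEN_WT. Mcm4 was at 3.06 and 2.31 CPM in WT, 7.23, 5.17, 12.3 and 5.83 CPM in PR-SET7_LOBE and 3.10 and 2.39 CPM in DEN_WT. In all 3 genes the PR-SET7_LOBE libraries lay clear of WT, with replicate 3 the highest, and for Mcm2 alone they overlapped DEN_WT. The log2 differences from WT were 1.42 ± 0.45 for Mcm3, 1.59 ± 0.53 for Mcm2 and 1.502 ± 0.53 for Mcm4, with edgeR adjusted p of 0.183, 0.197 and 0.218. Without replicate 1, Mcm3 passed (1.51 ± 0.41, adjusted p = 0.0437) and Mcm2 and Mcm4 did not (0.0606 and 0.0703).

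Mcm6, whose promoter window above holds 3 E2F matches, had the widest range of the ring. It was at 2.49 and 3.04 CPM in WT, 3.57, 13.7, 32.8 and 9.66 CPM in PR-SET7_LOBE and 8.59 and 4.86 CPM in DEN_WT. Replicate 1 was just above the higher WT library and the 3 others well above it. The log2 difference from WT was 2.43 ± 0.79 with all libraries (edgeR adjusted p = 0.189) and 2.76 ± 0.59 without replicate 1 (adjusted p = 0.0276).

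Mcm5 and Mcm7 separated PR-SET7_LOBE from DEN_WT. Mcm5 was at 10.2 and 7.75 CPM in WT, 13.9, 14.1, 12.8 and 6.56 CPM in PR-SET7_LOBE and 4.96 and 3.80 CPM in DEN_WT. Mcm7 was at 12.2 and 12.4 CPM in WT, 15.97, 14.4, 27.7 and 19.8 CPM in PR-SET7_LOBE and 8.94 and 9.10 CPM in DEN_WT. Every PR-SET7_LOBE library exceeded both DEN_WT libraries for both genes, as for 19.3% of all genes. For Mcm7, alone among the 43 members, PR-SET7_LOBE lay wholly above and DEN_WT wholly below WT. The difference between PR-SET7_LOBE and DEN_WT was 1.43 ± 0.46 for Mcm5 (edgeR adjusted p = 0.0733) and 1.11 ± 0.39 for Mcm7 (adjusted p = 0.097). Mcm7 passed without PR-SET7_LOBE replicate 1 (adjusted p = 0.0431) and Mcm5 without replicate 4 (0.036), its lowest library. Mcm7 overlaps Cops6 and Ap4m1 on the opposite strand and holds 3 microRNA genes on its own strand.

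**Figure D4:**
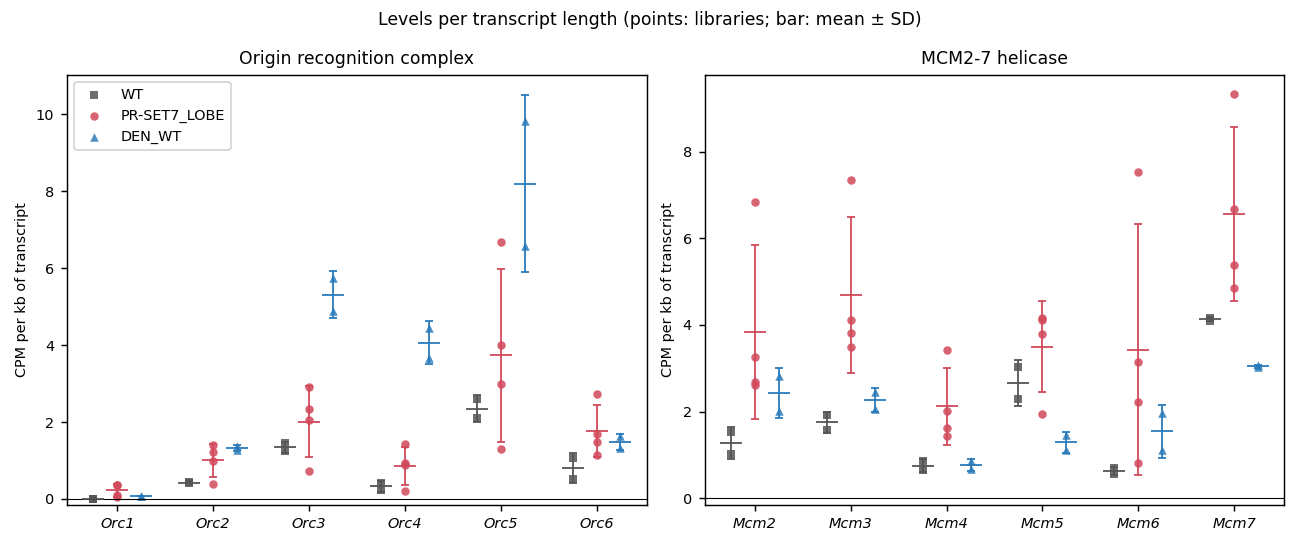
Level per kb of transcript of the ORC subunits (left) and the MCM2-7 subunits (right) in each library (points), with the mean and SD of each group. ORC levels are highest in DEN_WT for Orc3, Orc4 and Orc5, and each MCM subunit has its highest mean in PR-SET7_LOBE.

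Per kb of transcript, the mean level of the 6 MCM genes was 1.87 CPM per kb in WT, 4.02 in PR-SET7_LOBE and 1.89 in DEN_WT, and that of the 6 ORC genes was 0.871, 1.60 and 3.41. In WT the MCM mean exceeded the ORC mean in both libraries, as it did in all 4 PR-SET7_LOBE libraries, and in DEN_WT it was the lower of the pair in both. Within the ring, Mcm7 was the most abundant subunit in all 3 groups (4.14, 6.56 and 3.05 CPM per kb). Its WT libraries lay above those of the next subunit, Mcm5 (2.66 ± 0.52, SD, n = 2), while in PR-SET7_LOBE the next, Mcm3 (4.69 ± 1.79, SD, n = 4), overlapped it (6.56 ± 2.00, SD, n = 4).

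Helicase activation had no member that passed, and its genes did not move as a block: 3 of 6 log2 differences were above 0 in PR-SET7_LOBE against WT and 2 of 6 in DEN_WT against WT. Mcm10, which helps to switch on the loaded helicase, was at 62.1 and 115 CPM in WT, 37.9, 17.6, 21.3 and 66.3 CPM in PR-SET7_LOBE and 51.0 and 27.5 CPM in DEN_WT. It was the most abundant member per kb in WT (18.2 CPM per kb), and lower in most libraries of the other groups, with PR-SET7_LOBE replicate 4 within the WT range. The log2 difference was -1.31 ± 0.53 in PR-SET7_LOBE against WT (edgeR adjusted p = 0.256), -1.33 ± 0.57 without replicate 1 (0.129), and -1.18 ± 0.64 in DEN_WT against WT (0.248). Gins2, a subunit of GINS, was at 1.15 and 0.092 CPM in WT, 2.91, 2.20, 2.79 and 1.18 CPM in PR-SET7_LOBE and 1.68 and 1.06 CPM in DEN_WT, with all PR-SET7_LOBE libraries above WT, replicate 4 by a margin of 13 counts to the 12 of WT replicate 1. Cdc45, the partner of GINS and MCM, was at 0.574 and 1.11 CPM in WT, 0.845, 1.34, 1.49 and 1.55 CPM in PR-SET7_LOBE and 0.266 and 0.707 CPM in DEN_WT, so that PR-SET7_LOBE exceeded DEN_WT and overlapped WT. Gins1, Gins3 and Gins4 differed from WT by 0.57, -0.70 and -0.39 in PR-SET7_LOBE and by 0.91, -1.10 and -0.72 in DEN_WT (log2), and Gins4 had its lowest libraries in PR-SET7_LOBE replicate 4 and in DEN_WT.

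Among polymerases and primase, the subunits of one complex differed in direction. Pola2 (mm9 chromosome 19, 5940543 to 5964206, minus strand), the B subunit of polymerase alpha, was at 28.2 and 41.5 CPM in WT, 24.4, 20.5, 13.9 and 13.9 CPM in PR-SET7_LOBE and 6.11 and 5.74 CPM in DEN_WT. No pair of groups overlapped, with WT highest and DEN_WT lowest. Pola2 fell by 2.55 ± 0.46 on the log2 scale in DEN_WT against WT (edgeR adjusted p = 0.00711) and was higher by 1.62 ± 0.41 in PR-SET7_LOBE against DEN_WT (adjusted p = 0.0267). The first call was lost without WT replicate 2 (adjusted p = 0.055), DEN_WT replicate 1 (0.0775) or DEN_WT replicate 2 (0.104), and the second without PR-SET7_LOBE replicate 2 (0.0553), DEN_WT replicate 1 (0.23) or DEN_WT replicate 2 (0.311). Against WT, PR-SET7_LOBE was at -0.94 ± 0.36 (adjusted p = 0.239), and at -1.11 ± 0.30 (adjusted p = 0.0428) without replicate 1.

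Pola1, the catalytic subunit of the same polymerase, was at 0.766 and 0.277 CPM in WT, 0.470, 2.20, 3.99 and 2.92 CPM in PR-SET7_LOBE and 2.21 and 3.27 CPM in DEN_WT. It was thus higher than WT in every library except PR-SET7_LOBE replicate 1, where Pola2 was lower than WT in all. The log2 difference of Pola1 was 2.18 ± 0.89 in PR-SET7_LOBE against WT (edgeR adjusted p = 0.259) and 2.37 ± 0.97 in DEN_WT against WT (0.136), and both passed without replicate 1 (0.0391 and 0.033). Per kb, Pola2 exceeded Pola1 in all 3 groups (14.4 and 0.0975 CPM per kb in WT, 2.45 and 0.513 in DEN_WT). Of the primase subunits that work with them, Prim1 differed from WT by 0.91 in PR-SET7_LOBE and 1.34 in DEN_WT, and Prim2 by -0.01 and 0.27 (log2), and none of these passed.

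Pold2, an accessory subunit of polymerase delta, was at 16.8 and 21.6 CPM in WT, 13.8, 8.51, 7.24 and 6.47 CPM in PR-SET7_LOBE and 7.62 and 10.5 CPM in DEN_WT. Both other groups lay wholly below WT, by -1.09 ± 0.40 (edgeR adjusted p = 0.228) and -1.08 ± 0.48 (0.168), and passed without PR-SET7_LOBE replicate 1 (0.0292 and 0.0446). Pold1, the catalytic subunit, differed from WT by 0.49 and -0.20. Pole, the catalytic subunit of polymerase epsilon, was at 0.957 and 0.553 CPM in WT, 2.44, 2.01, 5.01 and 2.46 CPM in PR-SET7_LOBE and 2.66 and 1.24 CPM in DEN_WT, above WT in every library of both groups (log2 differences of 1.97 ± 0.70 and 1.35 ± 0.76, adjusted p of 0.218 and 0.258). Its partner Pole2 had 3 counts in WT in all, and the ratio of its level to WT was 2.98 (95% counting interval 0.871 to 15.8) in PR-SET7_LOBE and 6.28 (1.86 to 33.0) in DEN_WT. The 8 genes together were at 52.5 and 70.1 CPM in WT, 32.9 to 46.6 CPM in PR-SET7_LOBE and 26.9 and 28.7 CPM in DEN_WT, sums to which Pola2 and Pold2 contributed most.

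The clamp and its loader held none that passed with all libraries. Pcna, the sliding clamp, was at 22.6 and 15.1 CPM in WT, 19.8, 23.8, 38.5 and 13.8 CPM in PR-SET7_LOBE and 17.5 and 17.9 CPM in DEN_WT, and no pair of groups was separated. Rfc1, the large subunit of the loader, was at 5.46 and 3.50 CPM in WT, 4.32, 11.6, 16.7 and 13.3 CPM in PR-SET7_LOBE and 11.2 and 7.95 CPM in DEN_WT, with replicate 1 again the only PR-SET7_LOBE library within the WT range. Its log2 difference was 1.36 ± 0.56 (edgeR adjusted p = 0.261) in PR-SET7_LOBE against WT, and 1.63 ± 0.37 (adjusted p = 0.0299) without replicate 1. Rfc2, a small subunit, ran the other way: 25.0 and 25.6 CPM in WT, 20.5, 18.2, 17.5 and 11.8 CPM in PR-SET7_LOBE and 16.6 and 14.0 CPM in DEN_WT. Both groups were wholly below WT, by -0.58 ± 0.34 and -0.73 ± 0.40 (adjusted p of 0.385 and 0.25). Rfc3, Rfc4 and Rfc5 differed from WT by -0.26 to 0.42 in the 2 comparisons.

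RPA coats the single strands exposed by the helicase, and the differences of its genes from WT were small beside their errors. Rpa1 was at 24.8 and 22.8 CPM in WT, 20.9, 20.7, 26.0 and 18.9 CPM in PR-SET7_LOBE and 19.9 and 21.99 CPM in DEN_WT. Log2 differences from WT were -0.14 to 0.11 over the 3 genes in PR-SET7_LOBE and -0.39 to -0.18 in DEN_WT, and none passed. Rpa2 was at 3.83 and 9.87 CPM in WT, 5.82, 9.18, 7.43 and 7.20 CPM in PR-SET7_LOBE and 5.93 and 4.50 CPM in DEN_WT, and Rpa3 was at 2.11 and 2.49, 2.54, 0.861, 3.25 and 2.64, and 2.04 and 1.501 CPM in the same order. The WT libraries of Rpa2 differed from each other by more than the groups did.

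Among the genes of nucleotide supply, Rrm2 was the one that passed. It encodes the small subunit of ribonucleotide reductase, made in S phase, and lies at mm9 chromosome 12, 25393106 to 25399011, on the plus strand. Rrm2 was at 1.91 and 2.95 CPM in WT, 5.35, 9.85, 11.6 and 8.38 CPM in PR-SET7_LOBE and 12.7 and 10.8 CPM in DEN_WT. Every library of the other groups exceeded WT, and PR-SET7_LOBE and DEN_WT overlapped. Rrm2 rose by 2.26 ± 0.54 in DEN_WT against WT (edgeR adjusted p = 0.0256). That call was lost without WT replicate 1 (adjusted p = 0.167), WT replicate 2 (0.0759), DEN_WT replicate 1 (0.149) or DEN_WT replicate 2 (0.124). In PR-SET7_LOBE against WT its log2 difference was 1.85 ± 0.49 (adjusted p = 0.139), the smallest adjusted p of any member there, and 2.03 ± 0.38 without replicate 1 (adjusted p = 0.0213).

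Rrm1, the large subunit of the same enzyme, was at 5.26 and 7.01 CPM in WT, 3.57, 15.98, 18.4 and 8.75 CPM in PR-SET7_LOBE and 12.1 and 11.4 CPM in DEN_WT, and only PR-SET7_LOBE replicate 1 was below WT. Tyms, thymidylate synthase, was at 27.3 and 36.1 CPM in WT, 12.4, 35.5, 22.7 and 17.8 CPM in PR-SET7_LOBE and 11.7 and 7.24 CPM in DEN_WT. DEN_WT was wholly below WT, by -1.74 ± 0.53 (edgeR adjusted p = 0.0607), a difference that passed without PR-SET7_LOBE replicate 1 (0.0163). Without that library Tyms was also higher in PR-SET7_LOBE than in DEN_WT, by 1.42 (adjusted p = 0.0371), against 1.22 ± 0.47 (0.129) with it.

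The 2 genes of Okazaki fragment maturation were higher in PR-SET7_LOBE than in DEN_WT without passing the edgeR test. Lig1, the ligase that seals lagging-strand fragments, was at 2.68 and 3.50 CPM in WT, 6.57, 11.6, 9.75 and 4.46 CPM in PR-SET7_LOBE and 3.63 and 3.36 CPM in DEN_WT. Fen1, the flap endonuclease, was at 0.957 and 0.645 CPM in WT, 2.07, 1.91, 0.836 and 0.729 CPM in PR-SET7_LOBE and 0.354 and 0.088 CPM in DEN_WT. All PR-SET7_LOBE libraries exceeded DEN_WT for both, as they did for 19.3% of all genes. The differences were 1.21 ± 0.52 (edgeR adjusted p = 0.166) and 2.58 ± 1.00 (0.128), the latter from few counts. Both passed with limma voom (0.0373 and 0.0336), which called 29.9% of all genes. Without PR-SET7_LOBE replicate 1 these differences were 1.30 ± 0.48 (0.1) and 2.33 ± 0.97 (0.137).

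Members with E2F letters in their promoter window can be set beside those without, as a description. In PR-SET7_LOBE against WT, 13 of the 14 members with a match had a log2 difference above 0 (median 1.26), and 14 of the 21 without one (median 0.63). In DEN_WT against WT the medians were 0.32 and -0.09. In PR-SET7_LOBE against DEN_WT they were 1.08 and 0.04, with 11 of 14 and 11 of 21 above 0. Without PR-SET7_LOBE replicate 1 the medians were 1.16 and 0.53 against WT, and 1.17 and 0.29 against DEN_WT. Pola2, Pold2 and Mcm10, the members with the lowest values in the comparison of PR-SET7_LOBE with WT, were without the letters, as were Rrm2, Mcm2 and Orc4.

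Other genes of the same pathways were read from the same fit, as 7 lists of 103 genes, 102 of them tested. In PR-SET7_LOBE against WT 1 rose, Cdkn1a, where 0.15% of all genes did, with a median log2 difference of 0.51 over the 102. In DEN_WT against WT 8 rose (Pold4, Top2a, Asf1a, Cdkn1a, Ccna2, Ccnb1, Ccnb2 and Cdk1) and 2 fell (Tk1 and Impdh2), with a median of 0.58, where 5.18% and 4.54% of all genes rose and fell. The call of Impdh2 was lost under DESeq2 size factors (edgeR adjusted p = 0.0521), upper-quartile scaling (0.0596), no filter (0.0881), a strict filter (0.0613) and the GC correction (0.0642). That of Asf1a was lost under the GC correction (log2 1.255, adjusted p = 0.137). Those of Pold4 and Top2a were lost without PR-SET7_LOBE replicate 2 (0.0592 and 0.0587). Fits without 1 WT or 1 DEN_WT library leave 1 library in an arm and assume that it varies like the others. Each of these fits lost the calls of Pold4, Top2a, Asf1a, Ccna2, Cdk1, Tk1 and Impdh2. The call of Ccnb2 was lost in all of them except the fit without WT replicate 2. In PR-SET7_LOBE against DEN_WT Chaf1a and E2f1 were higher and none lower, where 4.82% and 6.26% of all genes were, with a median of 0.01. By list, those that passed in DEN_WT against WT were 2 of 26 replication kinases and fork factors, 2 of 13 other nucleotide synthesis genes, 1 of 11 genes of chromatin assembly at the fork, 0 of 16 E2F and pocket proteins, 2 of 14 S phase cyclins and kinases, 0 of 10 genes of the PCNA-coupled ubiquitin ligase and 3 of 12 mitosis genes. In PR-SET7_LOBE against WT the list medians ran from -0.26 for the other nucleotide synthesis genes to 2.47 for the mitosis genes. Without PR-SET7_LOBE replicate 1 the numbers were 17 higher and 5 lower in PR-SET7_LOBE against WT (7.41% and 6.54% of all genes), 28 and 8 in DEN_WT against WT (14.6% and 11.9%), and 3 and 3 in PR-SET7_LOBE against DEN_WT (6.93% and 8.6%).

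Cdkn1a, the p21 inhibitor of cyclin-dependent kinases that also binds PCNA, was at 1.15 and 2.40 CPM in WT, 56.1, 38.3, 21.9 and 83.1 CPM in PR-SET7_LOBE and 35.5 and 59.8 CPM in DEN_WT. Both groups were far above WT and overlapped each other, and it rose by 4.80 ± 0.69 (edgeR adjusted p = 0.0248) and 4.74 ± 0.72 (0.00327). The first of these calls was lost without WT replicate 1 (adjusted p = 0.17), WT replicate 2 (0.237) or PR-SET7_LOBE replicate 2 (0.0578). The replication kinase Cdc7 had no WT count in either library. Against the same floor of 3 counts it was 5.47-fold higher in PR-SET7_LOBE and 7.53-fold higher in DEN_WT, ratios that again allow for counting error in WT only. Neither difference passed with all libraries (edgeR adjusted p of 0.219 and 0.0891), and both did without PR-SET7_LOBE replicate 1 (0.0297 and 0.015). Chaf1a, the large subunit of the chromatin assembly factor that follows PCNA, was at 2.49 and 2.03 CPM in WT, 14.3, 5.74, 15.5 and 4.56 CPM in PR-SET7_LOBE and 2.21 and 1.501 CPM in DEN_WT, and was higher in PR-SET7_LOBE than in DEN_WT by 2.42 ± 0.65 (adjusted p = 0.0363). That call was lost when only those groups were fitted (0.0528) and without WT replicate 1 (0.0518), WT replicate 2 (0.0545), PR-SET7_LOBE replicate 3 (0.0732), DEN_WT replicate 1 (0.188) or DEN_WT replicate 2 (0.357). E2f1, a member of the factor family whose letters were searched above, was at 8.33 and 7.84 CPM in WT, 15.3, 14.3, 8.91 and 7.65 CPM in PR-SET7_LOBE and 2.92 and 3.18 CPM in DEN_WT, and was higher in PR-SET7_LOBE than in DEN_WT by 1.91 ± 0.47 (adjusted p = 0.024), which was lost without PR-SET7_LOBE replicate 2 (0.0526), DEN_WT replicate 1 (0.25) or DEN_WT replicate 2 (0.262).

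Thymidine kinase Tk1, which makes from thymidine the nucleotide that Tyms makes by another route, was at 57.0 and 62.0 CPM in WT, 30.6, 20.3, 14.95 and 15.7 CPM in PR-SET7_LOBE and 13.6 and 11.1 CPM in DEN_WT. It fell by 2.27 ± 0.45 in DEN_WT against WT (edgeR adjusted p = 0.0122) and was at -1.54 ± 0.36 in PR-SET7_LOBE against WT (0.103). The latter passed without PR-SET7_LOBE replicate 1 (-1.81, adjusted p = 0.0155), with DESeq2 (0.00865), limma voom (0.0271), no filter (0.0402) and the GC correction (0.033). The call in DEN_WT was lost without WT replicate 1 (0.0578), WT replicate 2 (0.0681), DEN_WT replicate 1 (0.0971) or DEN_WT replicate 2 (0.159). Among 12 mitosis genes used as a reference, all 12 log2 differences were above 0 in PR-SET7_LOBE against WT (median 2.47, and 2.25 without replicate 1) and 11 in DEN_WT against WT (median 1.82), with 0 and 3 that passed. The proliferation marker Mki67 was at 1.34 and 0.645 CPM in WT, 3.48, 7.46, 24.3 and 10.1 CPM in PR-SET7_LOBE and 9.83 and 5.12 CPM in DEN_WT, above WT in every library (3.50 ± 0.85 and 2.90 ± 0.89, adjusted p of 0.117 and 0.0621). Both passed without PR-SET7_LOBE replicate 1 (0.0211 and 0.0186) and with DESeq2 (0.000508 and 0.00749), and the second also without replicate 3 (0.0282). Replicate 3, which had the highest MCM sum, also had the highest Mki67 level.

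Summed levels of some cell type markers also differed between the groups, which in bulk tissue does not show a change in cell numbers. All 8 hepatocyte markers were detected in every library and summed to 113200 and 147100 CPM in WT, 49070 to 168700 in PR-SET7_LOBE and 129300 and 163500 in DEN_WT. Markers of cholangiocytes and progenitors (9) summed to 39.6 to 68.0 CPM in WT, 128 to 295.9 in PR-SET7_LOBE and 446.1 to 753.9 in DEN_WT, with none at 0 in any group, and Spp1, most of the sum outside WT, rose in both comparisons with WT. Prom1 rose in DEN_WT against WT. The ductal keratins Krt19 and Krt7 lay between 0.957 and 5.17 CPM in all 8 libraries. Stellate cell and fibroblast markers (8) summed to 92.1 to 104.5, 142.7 to 246.9 and 167.6 to 345.5 CPM. T and NK cell markers (9) summed to 19.9 to 20.1, 19.5 to 25.0 and 8.04 to 8.32 CPM, with Cd3g at 0 in WT. The B and plasma cell markers (7) summed to 528.6 to 1224, 235.3 to 859.2 and 331.2 to 386.3 CPM. These sums do not show the direction of each marker. Of the T and NK markers, 7 of 8 tested were above 0 in PR-SET7_LOBE against WT (median log2 difference 1.34). Of the B and plasma markers 5 of 7 were (median 2.10), against 54.6% of all genes, and none passed there. In DEN_WT against WT 1 marker of each list fell (4.54% of all genes). In PR-SET7_LOBE against DEN_WT 1 and 2 were higher (4.82%). The macrophage and Kupffer cell markers (8) summed to 272.8 to 766.3, 297.6 to 742.6 and 211.8 to 301.4 CPM, and the endothelial markers (7) to 218.7 to 284.5, 174.1 to 241.7 and 233.3 to 233.5 CPM. The neutrophil markers (7) summed to 4.98 to 9.77, 5.82 to 23.0 and 1.59 to 3.72 CPM, with Ly6g and Camp at 0 in WT. Hepatocyte, macrophage and endothelial sums overlapped between PR-SET7_LOBE and WT, the endothelial sum through replicate 1 alone (241.7 CPM). No gene of these lists passed with all libraries. In PR-SET7_LOBE against WT, 7 of 8 hepatocyte markers (median log2 difference -0.55) and 5 of 7 endothelial markers (-0.07) were below 0. Of the macrophage markers, 6 of 8 were above 0 (0.32). Without replicate 1, 2 hepatocyte markers fell there (6.54% of all genes) and 1 macrophage marker rose (7.41%). The ductal and stellate sums lay above WT in every library of both other groups. The part of these cell types in the differences of ORC, MCM2-7 or any other member was not tested.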

How the data were processed

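Ion Proton libraries of bead-selected liver mRNA, 8 in all, were counted per gene by the authors, and the deposited table holds raw counts, with 0 rows that name no gene. All 8 deposited single-library files equalled its columns. TopHat2 2.0.9, Cufflinks, DESeq and mm9 are named, per the submitters' processing notes, without their roles. For the counting tool, annotation and strand setting: not given in the sources used here.

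Counts were tested in R 4.3.3 with edgeR 4.0.16: filterByExpr kept 17362 of 37583 genes, with TMM scaling, 1 robust quasi-likelihood fit over the 3 groups without covariates and p-values adjusted by Benjamini-Hochberg across the 17362 genes, with a call at an adjusted p under 0.05. The common biological coefficient of variation was 0.479. Every adjusted p comes from edgeR unless DESeq2 1.42.0 or limma 3.58.1 (voom with quality weights) is named. CPM are TMM-scaled; levels per kb use the longest coding transcript of GENCODE vM21. Python 3.11.15, pandas 2.3.3, scipy 1.17.1 and matplotlib 3.10.9 made the tables, intervals and figures. The fit was tested on simulated data with 200 changed genes. Replicate pairs differed beyond sampling noise (lowest chi-square per degree of freedom 30.3), so none was merged. Reads carry no molecular identifiers, so intervals cover counting error only, and floors cover that of the WT counts only.

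Values are given in full for members that passed in any comparison and for up to 3 members per functional group with the smallest adjusted p, with others by range or added for the role they play. Of each pathway list up to 3 genes with the smallest adjusted p were eligible, plus Mki67, Setd8 and Cdkn1a. Members and lists were chosen with earlier results of these data known. Alternatives changed the scaling, tool, filter, groups fitted, replicate block, GC correction and libraries included. One cell type marker list is not reported here.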

Additional observations from a re-analysis of the deposited data

Results flagged for a closer look

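In 5 members 1 PR-SET7_LOBE library lay far from the other 3 of its group, by a test of its gap against the range of the group that flags about 1 in 20 groups by chance. Replicate 3 was the high library for Mcm2 (23.02 CPM, others 8.80 to 10.99), Mcm3 (22.28 CPM, others 10.57 to 12.44) and Pole (5.013 CPM, others 2.01 to 2.46). Replicate 4 was the low library for Mcm5 (6.559 CPM, others 12.81 to 14.06) and Gins4 (3.37 CPM, others 7.04 to 7.80).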

How the results depend on the processing

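No value that passed the test changed direction under any alternative run. Members that passed in PR-SET7_LOBE against WT numbered 0, and 3 with DESeq2 and 1 with limma voom (5.57% and 2.22% of all genes), and 0 to 9 when each library was left out in turn. In DEN_WT against WT they numbered 3, and 6 with DESeq2, 9 with limma voom and 9 when only the 2 groups were fitted, fits that called 18.1%, 36.5% and 37.8% of all genes, and 0 to 9 with libraries left out. In PR-SET7_LOBE against DEN_WT they numbered 2, and 1 with upper-quartile scaling, 4 with DESeq2, 12 with limma voom (10.8%, 16.4% and 29.9% of all genes) and 1 among members that overlap no other gene, and 0 to 4 with libraries left out. Pathway genes that passed in PR-SET7_LOBE against WT numbered 1, and 2 with upper-quartile scaling, 16 with DESeq2, 6 with limma voom, 6 without a filter and 4 with a GC correction, and 0 to 22 with libraries left out. In DEN_WT against WT they numbered 10, and 22 with DESeq2, 45 with limma voom, 17 without a filter, 6 with a strict filter and 40 with only the 2 groups fitted, and 2 to 36 with libraries left out. In PR-SET7_LOBE against DEN_WT they numbered 2, and 6 with DESeq2, 21 with limma voom, 1 with only the 2 groups fitted and 4 with a GC correction, and 0 to 6 with libraries left out. Shares of all genes called differed between these fits too. In PR-SET7_LOBE against WT they were 0.38% with upper-quartile scaling, 1.39% without a filter and 0.721% with a GC correction. In DEN_WT against WT they were 7.87% without a filter and 12.7% with a strict filter. In PR-SET7_LOBE against DEN_WT they were 10.5% with only the 2 groups and 13.7% with a GC correction. Without PR-SET7_LOBE replicate 1, the upper end of each range, they were 13.9%, 26.5% and 15.5%. With each gene's longest transcript of any kind, the mean ORC level per kb was 0.643 in WT (0.871 with the coding transcript) and 2.585 in DEN_WT (3.41). Upper-quartile scaling moved the median of all genes in PR-SET7_LOBE against WT from 0.11 to 0.29 and testing without a filter moved it to 0.52. The members' median there was 0.42 with the GC correction, against 0.67. Group medians near 0 changed sign with the scaling: helicase activation (-0.07 to 0.28), clamp (-0.14 to 0.33) and RPA (-0.23 to 0.21) in PR-SET7_LOBE against WT. Beyond fewer samples or genes, the cause was not tested. Few counts limit Orc1, Pole2, Cdc45 and Fen1.

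Replicate numbers recur across groups, but only 2 numbers are shared and same-numbered libraries deviated together weakly (r of 0.17 and 0.11 for WT with PR-SET7_LOBE, 0.06 for WT with DEN_WT), so they were not taken as pairs. With the replicate block, 0, 6 and 5 members passed in PR-SET7_LOBE against WT, DEN_WT against WT and PR-SET7_LOBE against DEN_WT, and 3, 19 and 6 pathway genes, where 1.4%, 18.1% and 15% of all genes did. The members' median was then 0.31 in PR-SET7_LOBE against WT and -0.01 in PR-SET7_LOBE against DEN_WT, with 21 of 43 above 0.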
